A study of Mus musculus with 30 samples.

Results

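C-type lectin and killer cell lectin-like receptor genes were located against the replication initiation zones of E14TG2a cells, a mouse embryonic stem cell line. The members were chosen by symbol, as protein-coding genes whose names begin with Clec or Klr on chromosomes 1 to 19 (mm10, NCBI RefSeq annotation GRCm38.p6). They numbered 60 of 20558 protein-coding genes, 33 of them Clec and 27 Klr. The set was proposed with zone distances of these data already known, so the distances are given as a description without a test. The complex on distal chromosome 6, taken as all members beyond 120 Mb, held 48 of the 60 and is given apart from the 12 others. Of these 12, 4 lay elsewhere on chromosome 6 and 8 on other chromosomes. A further 2 Klra genes of the annotation, Klra16 and Klra23, are placed off the assembled chromosomes and were left out.

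The series followed how parental and newly made histones partition to sister chromatids in wild-type cells and in 2 clones of the MCM2-2A histone-binding mutant. The measurement used here was 1 OK-seq library of wild-type cells, pulsed with 10 µM EdU for 2 min and grown in 2i medium with LIF; the other 29 of the 30 samples, in 16 of the 17 groups, were not analysed here. OK-seq reads the strand of Okazaki fragments and so locates where leftward and rightward replication forks diverge. The list held 2844 such zones with a median width of 112 kb, each with a breakpoint bin of 1 kb. Listed widths fall 1 kb short of the interval from first to last base, since they run from edge bin to edge bin. Sequencing depth is unknown, and with 1 library there is no replicate error to set beside the values.

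C-type lectin receptors are membrane or secreted proteins that carry a carbohydrate-recognition-like fold. On natural killer cells the killer lectin-like receptors read MHC class I and stress ligands and pass inhibitory or activating signals; on dendritic cells, macrophages and platelets the Clec receptors bind microbial sugars, dead cells or endogenous ligands. In the mouse most of them form the natural killer gene complex of chromosome 6, whose receptor genes are known mainly from immune cells; some members elsewhere act in other tissues. Their expression in these stem cells was not analysed here. Replication of mammalian chromosomes starts in broad zones that often lie beside active genes.

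The promoters of 2 members that start inside a zone and 2 of the complex are shown for their content of CG dinucleotides, which are dense in the CpG islands of many housekeeping promoters. Each line is the stretch from 250 bases before to 50 bases after an annotated start, 5′ to 3′ on the gene's strand, from RefSeq (mm10), in lower case with every CG dinucleotide in capitals. Clec16a (chr16:10545089-10545388, plus strand) and Clec18a (chr8:111081659-111081958, minus strand) start inside initiation zones. Klrk1 (chr6:129623815-129624114, minus strand) and Clec7a (chr6:129472730-129473029, minus strand) lie in the complex.
Clec16a: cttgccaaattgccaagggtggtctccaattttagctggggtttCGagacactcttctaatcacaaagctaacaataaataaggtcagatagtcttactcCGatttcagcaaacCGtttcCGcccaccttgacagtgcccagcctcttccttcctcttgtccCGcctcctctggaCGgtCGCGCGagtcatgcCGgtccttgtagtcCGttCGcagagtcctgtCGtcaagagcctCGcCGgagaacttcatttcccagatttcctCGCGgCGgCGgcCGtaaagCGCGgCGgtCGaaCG
Clec18a: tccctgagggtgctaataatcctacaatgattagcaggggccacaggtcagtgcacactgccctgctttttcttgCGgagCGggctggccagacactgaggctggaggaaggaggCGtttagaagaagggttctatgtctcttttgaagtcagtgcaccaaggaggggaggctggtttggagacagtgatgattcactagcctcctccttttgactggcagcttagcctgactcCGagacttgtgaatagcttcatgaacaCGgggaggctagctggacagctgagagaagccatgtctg
Klrk1: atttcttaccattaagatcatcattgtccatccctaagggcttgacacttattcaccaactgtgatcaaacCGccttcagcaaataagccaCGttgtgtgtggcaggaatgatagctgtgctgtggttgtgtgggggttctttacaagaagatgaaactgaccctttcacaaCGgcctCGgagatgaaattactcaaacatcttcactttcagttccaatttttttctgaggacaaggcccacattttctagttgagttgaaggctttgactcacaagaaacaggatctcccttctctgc
Clec7a: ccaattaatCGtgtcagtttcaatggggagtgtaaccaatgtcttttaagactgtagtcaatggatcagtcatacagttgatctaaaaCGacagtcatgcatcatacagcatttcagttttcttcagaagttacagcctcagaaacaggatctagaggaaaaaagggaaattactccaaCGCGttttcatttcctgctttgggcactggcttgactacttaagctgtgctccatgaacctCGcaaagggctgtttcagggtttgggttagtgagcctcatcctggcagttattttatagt
The Clec16a promoter held 25 CG dinucleotides, against 5 in Clec18a, 4 in Klrk1 and 5 in Clec7a. Of these 4, only the Clec16a promoter was rich in them, and Clec18a, although inside a zone, was like the 2 promoters of the complex. The GC content of Clec16a was 55.0%, close to the 53.3% of Clec18a, and that of Klrk1 was 43.3% and of Clec7a 42.0%.

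Few members lay at initiation zones, and none of those in the complex did. Of the 60 members, 3 (5%, Wilson 95% interval 1.71 to 13.7%) had an end inside a zone, and the same 3 were the only ones with an end within 20 kb. The shares over all protein-coding genes were 32.4% for an end inside and 38.5% for an end within 20 kb; on chromosome 6 alone they were 27.7% and 32.9%. In the complex the count was 0 of 48 (upper bound 7.41%), and among the other members 3 of 12 (25%, 8.89 to 53.2%). The interval of the 12 others holds both backgrounds, so with 12 genes a difference from genes in general was not detectable outside the complex. With the complex taken only as its largest run of members, the first block joined the others and the share outside was 3 of 22 (13.6%, 4.75 to 33.3%). That interval lies below the 38.5% of all protein-coding genes but holds the 32.9% of chromosome 6, where the first block lies. These intervals treat genes as independent, although members of a cluster share their surroundings, and they cover counting error only.

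Distances showed the same contrast. The median member lay 476.6 kb from the nearest zone edge, with 867.6 kb for the complex and 119.3 kb for the other members, against 70.3 kb for all protein-coding genes. A distance of over 1 Mb was found for 17 of 60 members (28.3%), all of them in the complex, against 2.94% of all protein-coding genes and 4.73% of those on chromosome 6. These 17 genes are neighbours in a single stretch and count as 1 place in the genome. Counted as loci, with members less than 100 kb apart joined, 3 of 16 loci (18.8%, 6.59 to 43.0%) were within 20 kb of a zone, an interval that holds the 38.5% of all protein-coding genes; for the complex the count was 0 of 5 loci (upper bound 43.4%). The 38.5% counts single genes, and no background over loci was computed. Whether the loci differ from genes in general was therefore not decided.

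**Figure D1:**
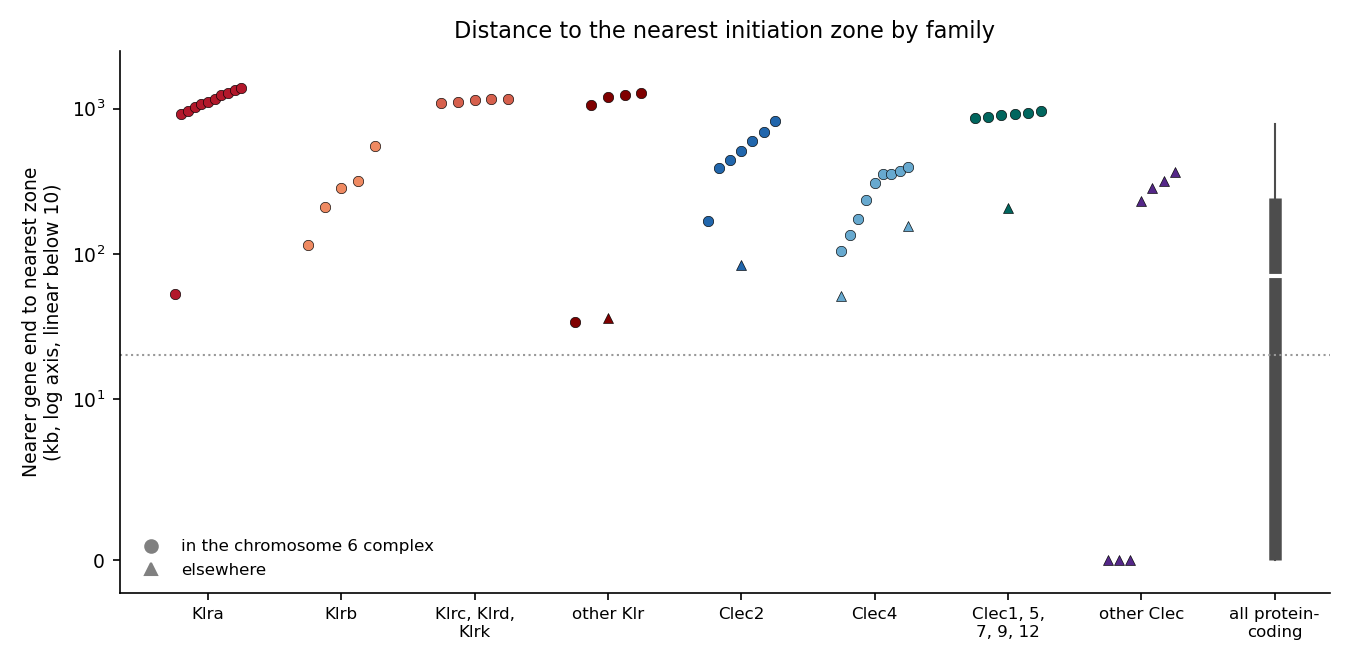
Distance in kb from the nearer gene end to the nearest zone edge (log axis, linear below 10 kb) for each of the 60 members by family, with circles for the complex and triangles for members elsewhere; the bar at the right spans the 25th to 75th percentile of all 20558 protein-coding genes, the line the 5th to 95th, the white mark the median of 70.3 kb, and the dotted line 20 kb. The 3 members at 0 kb are all outside the complex, and the Klra genes reach the largest distance, 1387.8 kb.

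The complex fell into 2 blocks, separated by more than 1 Mb without a member, that differed in their distance to zones. The first block, from Klrg1 to Clec4e (chromosome 6, 122270596 to 123289871), held 10 members at 34.2 to 398.0 kb from a zone, with a median of 269.3 kb. The second, from Klrb1a to Klra2 (128609227 to 131247716), held 38 members at 53.3 to 1387.8 kb, with a median of 947.5 kb. All 38 lay in a single gap between neighbouring zones, from 128495001 to 131301000, or 2806 kb. That gap held 63.3% of all members.

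**Figure D2:**
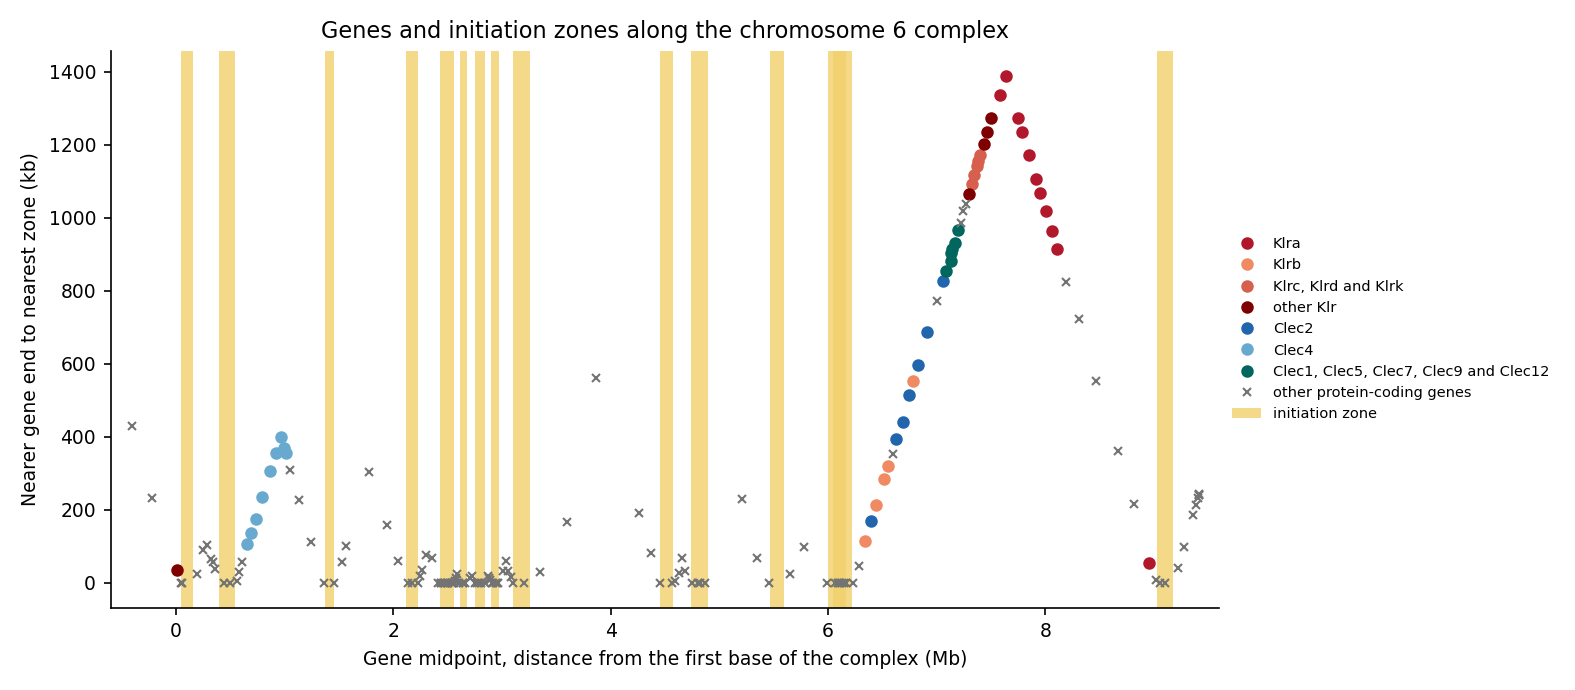
Distance in kb from the nearer gene end to the nearest zone edge against the position of the gene midpoint in Mb from the first base of the chromosome 6 complex, for members (circles, by family) and other protein-coding genes (crosses), with initiation zones as yellow bands. The members of the second block climb to 1387.8 kb and fall again within one zone-free gap, where distance follows position by construction, while most genes between the blocks sit at or near 0 kb.

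The gap was long and, with its members counted, rich in genes. Among 2737 gaps between neighbouring zones, with overlapping zones joined, the median length was 508 kb and 66 gaps were longer than this one. It held 50 protein-coding genes, the 38 members and 12 others, or 17.8 per Mb, against 8.57 per Mb over all chromosomes. The gap was picked for holding the most members, so its gene count reflects the choice of a clustered family. The median of the 178 gaps of 2 Mb or more was 6 genes and 2.3 genes per Mb, and 7 others of them held more than 50. In 3 of those 7, olfactory (Olfr) or vomeronasal (Vmn) receptor genes made up 50% or more of the genes, and 3 held none of these. Members themselves had a median of 10 protein-coding genes within 250 kb in the complex and 11.5 elsewhere, against 9 for all protein-coding genes. These counts include clustered members, and the range was 5 to 19 in the complex and 1 to 27 elsewhere.

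**Figure D3:**
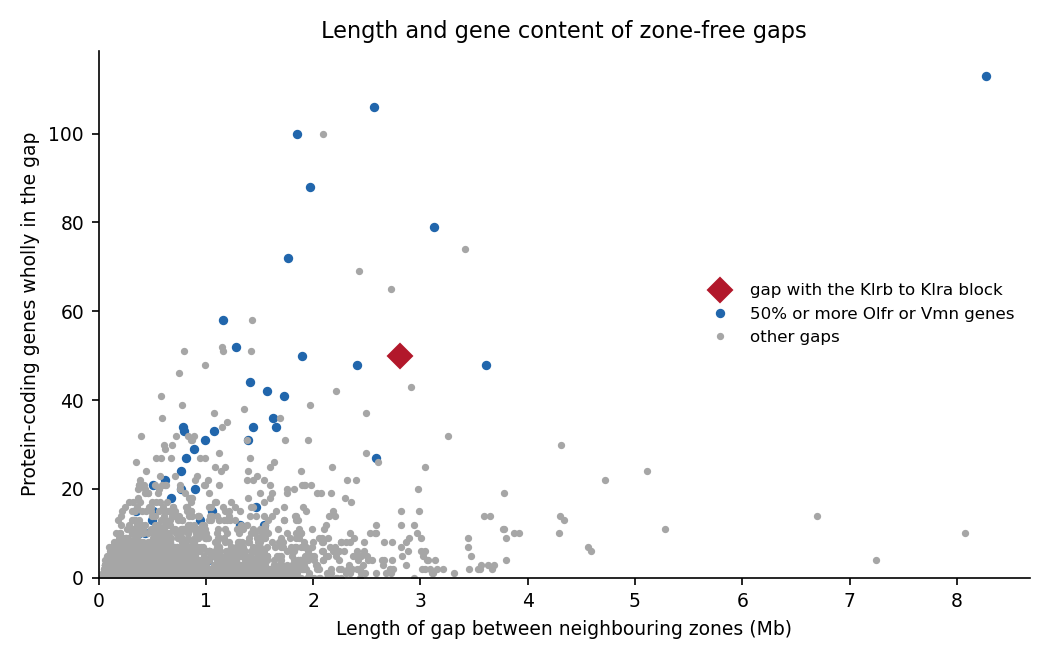
Number of protein-coding genes wholly inside each of 2737 gaps between neighbouring initiation zones against the length of the gap in Mb; the diamond is the gap with the second block of the complex, and blue points are gaps in which 50% or more of the genes are Olfr or Vmn genes. At 2806 kb and 50 genes the diamond stands above most gaps of its length, whose median content was 6 genes for lengths of 2 Mb or more. Of its 50 genes 38 are members, and the gap was picked for holding the most of them.

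Zones were absent from the second block but frequent in the stretch between the blocks. The second block held 0 zones in 2.64 Mb (exact Poisson 95% interval 0 to 1.40 per Mb), the first 2 in 1.02 Mb (1.96 per Mb, 0.238 to 7.09), and the stretch between them 12 in 5.32 Mb (2.26 per Mb, 1.17 to 3.94). Chromosome 6 as a whole held 1.19 per Mb (1.02 to 1.38). The second block held 18.2 protein-coding genes per Mb, the first 22.6 and the stretch between them 16.4. The intervals of both blocks and of the stretch between them each hold the 1.19 per Mb of chromosome 6. Those of the second block and of the stretch between the blocks overlap from 1.17 to 1.40 per Mb. The members were proposed with zone distances known, so these intervals cover counting error and do not test a difference. Of the 48 members in the blocks 0 had an end within 20 kb of a zone, against 59 of the 87 genes between them (67.8%). Other genes inside the blocks were placed much as their member neighbours in the second block, where 0 of 10 were within 20 kb and the median was 746.6 kb, and less so in the first, where 5 of 13 (38.5%) were. The second block lies wholly in a gap without zones, so every gene inside it is over 20 kb from a zone by position, member or not.

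The 14 zones with a breakpoint inside the interval of the complex held ends of other genes and of no member. Inside the first block, one zone held the Polycomb gene Phc1 and M6pr, which encodes a mannose 6-phosphate receptor. The next, also inside the block, held the pluripotency factor gene Nanog and the glucose transporter gene Slc2a3. Nanog had an end 4.87 kb from the breakpoint of that zone, whose right edge was 104.8 kb short of Clec4a1. The zone after it held the vomeronasal receptor genes Vmn2r23 and Vmn2r22, and another one C1rl, Clstn3 and Pex5. The genes nearest to the breakpoints of the following zones were Lrrc23, Eno2 and Spsb2; Ptms, Lag3 and Mlf2; Lpar5, Acrbp and Ing4; Mrpl51, Ncapd2 and Vamp1; Cd9 and Plekhg6; Ndufa9 and Kcna6; Tigar, the cyclin gene Ccnd2 and Fgf23; and Prmt8. The last pair of zones overlapped and bounded the long gap on its left. They held Tulp3, Rhno1 and the cell cycle factor gene Foxm1, and Nrip2, Itfg2 and Fkbp4. On the right the gap ended at a zone with Ybx3 and Styk1, whose breakpoint had the nearer end of Ybx3 at 9.05 kb.

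Inside the second block the families follow one another, and the distances rise and fall with their order. The Klrb genes, which encode the NKR-P1 receptors, and the Clec2 genes, whose products include their ligands, are interleaved nearest to the left edge. The 5 Klrb genes lay 114.2 to 550.8 kb from a zone. Klrb1a was nearest at 114.2 kb, Klrb1c, which encodes the NK1.1 antigen, lay at 283.5 kb, and Klrb1b at 318.7 kb. The 7 Clec2 genes of the complex ran from 167.4 kb for Clec2h to 827.2 kb for Clec2m, with Clec2d, which encodes the ligand of the Klrb1b receptor, at 685.6 kb. A receptor gene and its ligand gene thus lay in the same gap at different distances from its edge.

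The myeloid and platelet receptors come next, at 854.8 to 966.6 kb. These 6 genes are Clec12a, which encodes an inhibitory receptor of myeloid cells (854.8 kb), Clec12b (880.5 kb), Clec1b, the platelet receptor for podoplanin (902.3 kb), Clec9a, the dendritic cell receptor for dead cells (913.9 kb), Clec1a (931.7 kb) and Clec7a (966.6 kb), which encodes Dectin-1, the receptor for fungal beta-glucan. All 6 exceeded the 95th percentile of all protein-coding genes, 778.1 kb. The CD94 and NKG2 genes were farther still, at 1093.1 to 1171.0 kb. Klrd1 encodes CD94, the partner chain of the NKG2A product of Klrc1, and lay at 1093.1 kb, with Klrk1, which encodes the activating receptor NKG2D, at 1115.3 kb. Klrc3, Klrc2 and Klrc1 followed at 1141.3, 1154.6 and 1171.0 kb. Klre1, Klri1, Klri2 and Klrh1 lay at 1064.4, 1201.1, 1234.0 and 1271.6 kb.

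The Klra genes, which encode the Ly49 receptors for MHC class I, reached the largest distances of all members. Their median was 1106.6 kb, and 8 of 11 exceeded 1 Mb. Klra5 was farthest at 1387.8 kb (chromosome 6, 129898988 to 129913237), followed by Klra17 at 1336.2 kb, which encodes Ly49Q, and by Klra6 at 1274.0 kb. Klra4 (Ly49D) lay at 1233.7 kb and Klra8 (Ly49H, an activating receptor that recognises a cytomegalovirus protein) at 1171.1 kb. From there the distance to the right edge fell through Klra9, Klra7, Klra10 and Klra3 to 914.1 kb at Klra1 (Ly49A). Klra2, which encodes Ly49B and stands apart from the other Klra genes, was nearest at 53.3 kb. All 11 Klra genes had an annotated start on the minus strand, against 14 of the 23 other members of the second block with a known strand.

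The Klra genes arose by duplication, and 2 of the 55 pairs of their promoters reached 80% identity. The closest pair by global alignment, Klra4 (chr6:130067222-130067521, minus strand) and Klra8 (chr6:130129849-130130148, minus strand), is shown with the bases that differ in capitals.
Klra4: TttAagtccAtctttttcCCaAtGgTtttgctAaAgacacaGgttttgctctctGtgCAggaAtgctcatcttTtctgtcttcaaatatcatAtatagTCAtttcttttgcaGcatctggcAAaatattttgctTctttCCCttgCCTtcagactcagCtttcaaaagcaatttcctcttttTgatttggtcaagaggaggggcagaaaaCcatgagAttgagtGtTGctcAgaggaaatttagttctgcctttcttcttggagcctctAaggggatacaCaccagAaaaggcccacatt
Klra8: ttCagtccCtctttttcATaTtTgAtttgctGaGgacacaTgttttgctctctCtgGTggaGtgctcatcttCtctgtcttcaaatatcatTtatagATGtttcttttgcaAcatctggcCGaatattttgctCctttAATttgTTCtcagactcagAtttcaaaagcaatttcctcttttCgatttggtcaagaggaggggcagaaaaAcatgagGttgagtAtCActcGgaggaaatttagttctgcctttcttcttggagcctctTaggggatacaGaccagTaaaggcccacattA
The 2 promoters were identical in 86.0% of alignment columns. Over the 55 pairs of the 11 Klra genes the median identity was 48.6% (44.0 to 86.0%); over the 253 pairs of the 23 other promoters of the block the median was 47.0% (41.5 to 79.0%), and 0 reached 80%. These medians were close, but the upper ends of the 2 sets were not. No baseline of unrelated promoters was computed and only the first listed start of each gene was aligned. The medians alone therefore do not show how alike the promoters of either set are. Among the other promoters only Clec2e with Clec2h (79.0%) and Klrc2 with Klrc3 (75.1%) exceeded the 69.4% of Klrb1a with Klrb1c. More Klra pairs lay above that level, among them Klra3 with Klra9 (85.0%), Klra17 with Klra4 (79.3%) and Klra5 with Klra6 (75.7%). The printed pair is the highest of the Klra pairs. Short reads may not place uniquely on close copies, and the sources used here do not say how such reads were handled. The reference is C57BL/6J, whereas E14TG2a cells derive from a 129 strain, and mouse strains differ in their number of Klra genes. The part of either point in the distances was not tested.

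The first block held Klrg1, which encodes an inhibitory receptor for cadherins, and the Clec4 genes of the Dectin-2 group. Klrg1 was the nearest member of the complex, 34.2 kb from the zone with Phc1. The 9 Clec4 genes ran from Clec4a1 at 104.8 kb to Clec4n, which encodes Dectin-2, at 398.0 kb, and all lay in a gap of 828 kb with 15 protein-coding genes. Clec4a3, Clec4a4, Clec4b1, Clec4a2 and Clec4b2 lay at 135.5, 173.4, 233.0, 305.7 and 355.9 kb. Clec4n, Clec4d and Clec4e were nearer to the zone on the right of the gap, and Clec4d and Clec4e, which encode the mycobacterial glycolipid receptors MCL and Mincle, lay at 369.7 and 355.1 kb.

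Outside the complex, 3 members had ends inside zones. Clec18a (chromosome 8, 111069496 to 111092424), which encodes a secreted lectin, lay wholly in a zone from 111048001 to 111110000. Its listed width was 61 kb. The body of Clec18a held the breakpoint, and Aars, Exosc6 and Pdpr shared the zone. Clec3a (chromosome 8, 114418034 to 114428133), a lectin gene of cartilage, lay wholly in a zone with a listed width of 156 kb between Vat1l and the start of the very long gene Wwox, 11.5 kb from the breakpoint. Clec16a (chromosome 16, 10545309 to 10744878), whose product acts in mitophagy and is not known as a sugar-binding receptor, reached into a zone only with its start. The zone ended 0.691 kb beyond that start, so this call depends on the placement of one edge bin, and its breakpoint lay 70.8 kb away. The MHC class II transactivator gene Ciita had an end 5.51 kb from the same breakpoint, and Dexi lay in the zone next to Clec16a.

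The next members outside the complex were at 36.3 to 366.0 kb. Klrg2 and Clec2l, neighbours on proximal chromosome 6, lay 36.3 and 83.1 kb from the same zone. Clec4g, which encodes the liver sinusoidal lectin LSECtin, was 51.1 kb from a zone with a listed width of 200 kb. Clec4f, a Kupffer cell marker, lay at 155.5 kb, and Clec5a, which encodes a DAP12-coupled myeloid receptor, at 207.9 kb. Clec3b, which encodes tetranectin, Clec14a, of endothelial cells, Clec10a, of macrophages, and Clec11a, a growth factor gene of bone marrow, lay at 230.6, 281.7, 317.2 and 366.0 kb.

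Promoters of the complex were poor in CG dinucleotides. RefSeq gave a promoter for 50 of 60 members, 41 of them in the complex; the first listed was used for each gene. In the complex the median was 2 CG dinucleotides per 300 bases (range 0 to 7) with a GC content of 40.0%, against 14 and 56.7% over 16457 protein-coding genes. A count of 10 or more was found in 0 of 41 promoters of the complex and in 3 of 9 elsewhere, namely Clec2l (29), Clec16a (25) and Klrg2 (12), against 58.5% of all genes. Among all genes the share was 76.6% for starts inside a zone and 31.7% for starts over 500 kb from one. The second block, at a median of 2.5, and the Klra genes, at 2, were close to the median of 3 of those distant genes. Members of the block are among those distant genes, and clustered promoters are not independent. The promoters printed above for Klrk1 and Clec7a, with 4 and 5, are among the higher ones of the complex.

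**Figure D4:**
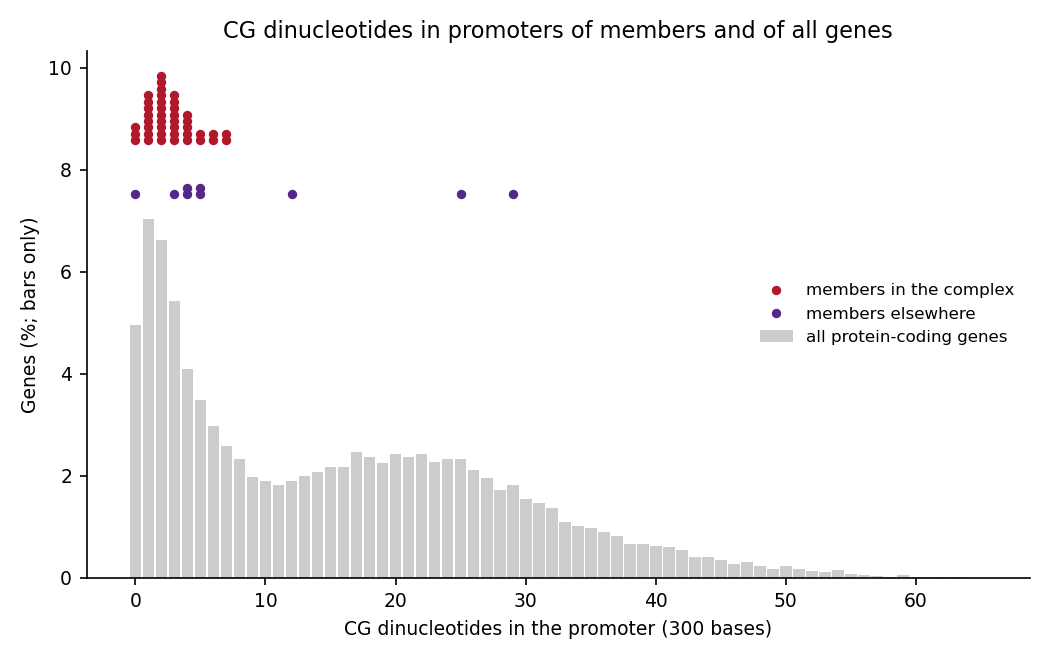
CG dinucleotides in the promoter of 300 bases for 41 members in the complex (upper points) and 9 elsewhere (lower points), 1 point a gene, above bars that give the share of 16457 protein-coding genes at each count. The points of the complex end at 7, below the broad shoulder of the bars, and 3 of the 9 others lie at 12, 25 and 29.

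Genes that work with these receptors, in lists chosen with earlier results of these data known, varied in their distance to zones. Of 20 adaptor and signalling genes, 14 (70.0%, 48.1 to 85.5%) had an end within 20 kb of a zone, against 38.5% of all protein-coding genes, among them Syk, Card9, Bcl10, Plcg2 and Ptpn6. Ptpn6, which encodes the phosphatase SHP-1 that inhibitory Klra receptors recruit, lay in a zone between the 2 blocks of the complex itself. The adaptor genes Tyrobp (DAP12) and Hcst (DAP10), by contrast, lay 98.8 and 102.7 kb from a zone, and Fcer1g at 301.6 kb. Tyrobp and Hcst lay 199.3 and 203.2 kb from the breakpoint. The arm of the zone on their side is thus at the 100 kb limit and may be cut short.

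Of 50 genes with a C-type lectin domain but another name, 11 (22.0%, 12.8 to 35.2%) were near, against the same 38.5%, with a median of 98.0 kb. This interval treats the genes as independent, although the Reg genes of chromosome 6 and the Cd209 genes of chromosome 8 are clustered. The selectin gene Sele, Ly75, Cd72 and Cd248 had ends inside zones. Cd69 and Olr1, which sit inside the second block, lay at 772.3 and 984.1 kb, and the Cd209 genes of chromosome 8 at 87.4 to 478.2 kb. Among 14 ligand and partner genes 3 (21.4%, 7.57 to 47.6%) were near, and this interval holds 38.5%. B2m, the light chain of MHC class I, and the cadherin gene Cdh1, whose product binds KLRG1, had ends inside zones, and H2-T23, which encodes the Qa-1 ligand of CD94 and NKG2A, lay at 51.0 kb. The 5 NKG2D ligand genes placed here, Raet1e, H60b, Raet1d, Ulbp1 and H60c, lay 983.5 to 1905.9 kb from a zone on chromosome 10. The NKG2D receptor gene and these ligand genes thus lay beyond 778.1 kb, the 95th percentile of all protein-coding genes. Raet1e, H60b and Raet1d are neighbours in a single gap and are not independent. Raet1a, Raet1b and Raet1c of the list were not placed.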

How the data were processed

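The submitters' processing notes name the build mm10 and, without roles, SAMtools, Picard 2.8.2, Bowtie, Trim Galore 0.4.2, BWA 0.7.13 and bcl2fastq; the name and settings of the zone caller were not given in the sources used here. Each zone has positions and distances in bp in the deposited list, per the file headers, with no counts or signal. A zone was taken from its left to its right edge bin. Arms stop at 100 kb.

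Gene positions came from the RefSeq table of GRCm38.p6 (mm10); 107 protein-coding genes off the chromosomes were left out. The distance of a gene ran from its nearer end to the nearest zone edge, and was 0 for medians also when a zone lay inside the gene. Distances were tested on simulated intervals. Promoters were compared by global alignment (Biopython 1.88); other steps used Python 3.11.15, pandas 2.3.3 and SciPy 1.17.1. Shares have Wilson and densities exact Poisson intervals (95%). No p-value was computed.

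The members and the lists of related genes were chosen with earlier results of these data known. The genes named were every member with an end inside or within 20 kb of a zone, the 5 next, the 5 farthest, the nearest and farthest of each block, and up to 3 genes in each zone of the complex. Other members, and genes in gaps, outer zones and related lists, were named after their values were seen. The promoter comparison was added after the zone distances were seen.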

Additional observations from a re-analysis of the deposited data

How the results depend on the processing

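With 1 library, no depth and no replicate, each alternative was judged against the counting interval of the value in the report. Of 55 alternatives, 52 stayed within it. The share of all members within 20 kb of a zone (5%) was 18.8% (6.59 to 43.0%) with members less than 100 kb apart counted as 1 locus. That interval, like the one of the complex (0 of 5 loci, 0 to 43.4%), holds the 38.5% of all protein-coding genes. The 38.5% counts single genes and no background over loci was computed, so a difference from genes in general was not decided over loci. The median distance of members outside the complex (119.3 kb) was 551 kb when zones narrower than the median were dropped, where the median of all protein-coding genes was 254 kb, against 70.3 kb with every zone. The density of zones in the complex (1.56 per Mb) was 0 with the complex taken as its largest run of members, which also gave 13.6% (4.75 to 33.3%) in place of 25% for the share within 20 kb outside it. In the complex the share within 20 kb stayed at 0% under each alternative except a limit of 50 kb, which gave 2.08%. Measured from the transcription start, a choice added after seeing the data like the omission of Clec16a, the share was 4% of all members; without Clec16a the share outside the complex was 18.2%. No paired analysis was possible because only 1 library was analysed. A zone with an arm at the 100 kb limit may be shortened, which would lengthen some distances, and genes in a cluster are not independent.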
